A study of Limodorum abortivum with 6 samples.

Results

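Glucan endo-1,3-beta-glucosidases, or beta-1,3-glucanases, were examined in roots of the orchid *Limodorum abortivum*. The 10 genes of this family were all those with that description among 1159 plant genes for which a description was at hand, called the listed plant genes here, out of 100005 assembled genes in the count files. They were taken by description, with earlier results of these data known. The study tested more plant transcripts than were listed here. Its table of the most upregulated genes holds another glucan endo-1,3-beta-glucosidase, under an identifier that none of the 10 carries. Sums and rankings below therefore cover these 10 genes and not the whole family. RNA was sequenced from roots of adult plants collected in nature at a single site, of which 3 libraries (LM3, LM4, LM6) represent mycorrhizal roots, and the other 3 (LS2, LS3, LS6) represent roots without mycorrhiza. LM roots held the intracellular coils of the fungal symbiont. LS roots lacked these coils but grew in nonsterile soil, in contact with other microbes. The study recognized LM roots as thicker and darker, and checked hand sections, so that mycorrhizal status and root type cannot be told apart here. Segments came from different individuals, whose number per library is not given in the sources used here, and the labels call the 3 libraries of a condition replicates.

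As background, these enzymes cut beta-1,3-glucan. Plants make this polymer themselves as callose, laid down at plasmodesmata, in sieve plates and in papillae at sites of attack, and fungal cell walls hold related glucans. Some members of the family are pathogenesis-related proteins that are produced during defense, while others act on callose in development, for example when pollen is released or plasmodesmata open. In orchid mycorrhiza the fungus coils inside root cells, where hyphae are surrounded by a plant membrane and are later digested.

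All 10 genes were assigned to glycoside hydrolase family GH17, the catalytic domain of plant beta-1,3-glucanases. A further CBM43 module, which binds beta-1,3-glucan, was assigned to 7 of them and not to MSTRG.358, MSTRG.1911 and MSTRG.1913. A signal peptide, which directs a protein into the secretory pathway, was predicted for MSTRG.845 and MSTRG.2423. The best taxonomic match was *Dendrobium catenatum*, another orchid, for all 10. Of the 10 genes, 6 come in 3 pairs that share a Trinity gene, the unit by which the assembler groups related transcripts: MSTRG.1911 with MSTRG.1913, MSTRG.2019 with MSTRG.2020, and MSTRG.2422 with MSTRG.2423. The members of a pair are therefore not independent genes, and could be alleles, isoforms or close copies. No sequence of these transcripts was at hand, so none is shown.

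Counts summed over all genes ranged from 5364549 to 6019195 in LM and from 4748078 to 5809054 in LS. Reads that fell in more than one gene and were therefore assigned to none made up 3.78% to 4.16% of the entries of a file in LM and 7.46% to 11.3% in LS, and their part in the results below was not tested. Entries for multiply aligned reads, which were not counted either, made up 63.6% to 64.8% in LM and 61.1% to 61.4% in LS. The listed plant genes took 2.55% to 3.08% of the gene counts in LM and 2.82% to 3.82% in LS. They include no gene that marks root tissue well enough to check the label. Levels are given as CPM, the counts scaled to 1e+06 reads aligned to plant transcripts in the same library, and fold changes as log2 of LM over LS from edgeR's quasi-likelihood test. Levels are compared between libraries only and not between genes, because transcript lengths were not used.

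At an adjusted p under 0.05, edgeR's quasi-likelihood test called 0 of the 719 listed plant genes tested (0%), and so 0 of the 8 members among them. At an unadjusted p under 0.05 it had 114 of the 719 genes (15.9%), and of the 8 members it had 5 that were higher in LM (9.32% of genes) and 1 that was lower (6.54% of genes). DESeq2 called 74 of 1002 listed plant genes with an adjusted p (7.39%), of which 40 were higher in LM (3.99%) and 34 lower (3.39%). Among the 10 members, DESeq2 called MSTRG.1911, MSTRG.2019, MSTRG.2422 and MSTRG.2423 as higher and MSTRG.701 as lower. When edgeR was fitted without its filter on low counts, 6 members were higher in LM at an unadjusted p under 0.05, where 8.28% of 1159 genes were, and 1 member was lower, where 5.61% were (13.9% in both directions). Their median log2 fold change in that fit was 2.51 over the 10 members, beside 0.03 over all 1159 genes. Group ranges were disjoint in 6 of the 10 members (20.9% of 1159 genes), with LM above LS in 5 (13.0%) and LM below LS in 1 (7.85%). Among the 8 members that passed the filter, 5 had disjoint ranges (24.1% of 719 genes), with LM above in 4 (15.4%) and below in 1 (8.62%). The 5 of 10 members with LM above LS include both genes of 2 pairs and so are not independent loci. In these whole root segments, a difference in the number of cells of a type cannot be told apart from a difference in RNA per cell.

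**Figure D1:**
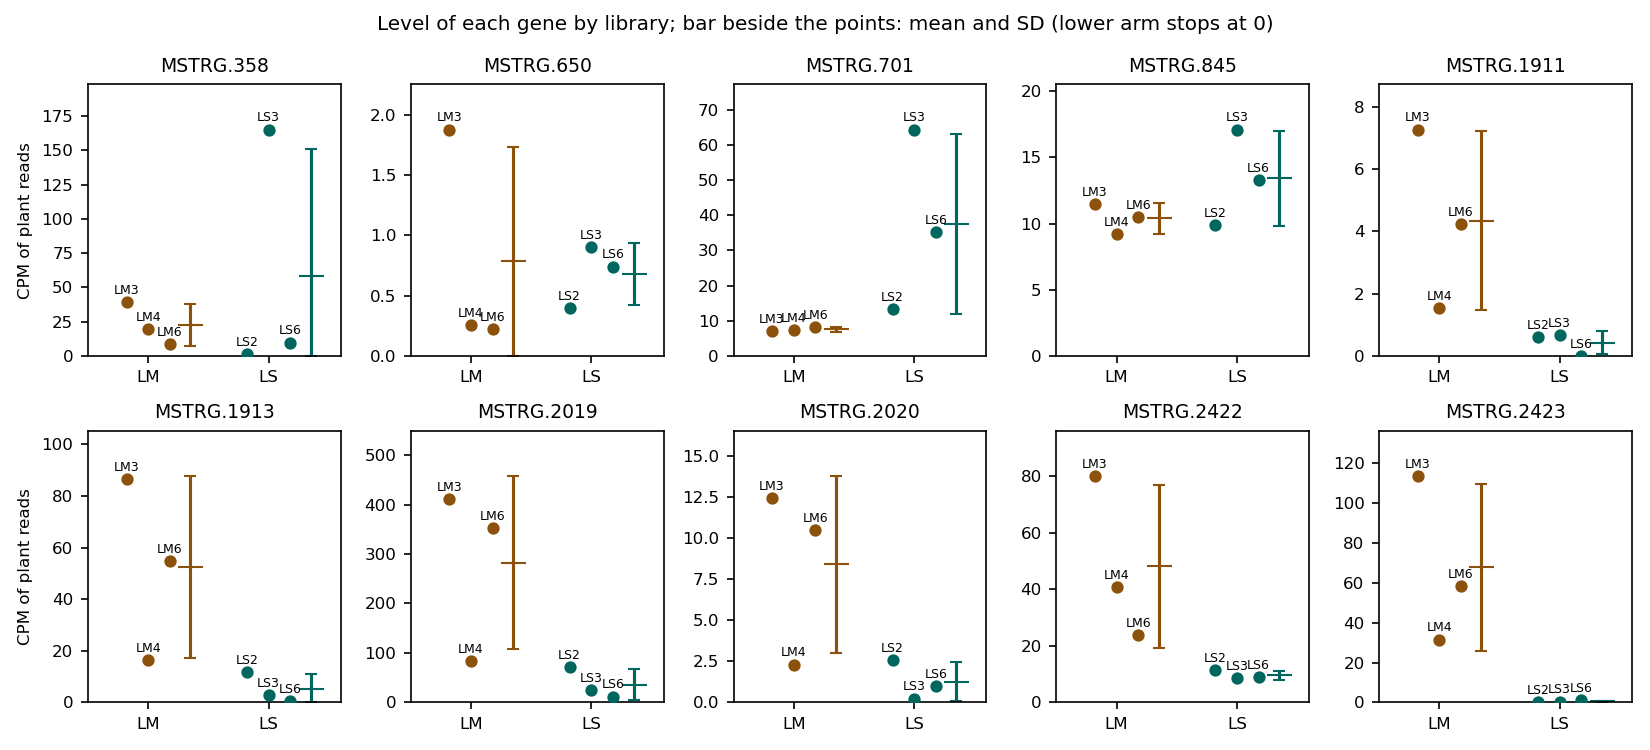
Level of each of the 10 genes in each library, in CPM (linear axes from 0, a separate scale for each gene), with LM libraries on the left and LS libraries on the right of each panel; the bar beside the points is the mean ± SD of 3 libraries, with its lower arm cut at 0. MSTRG.2423 lies between 31.4 and 113 CPM in LM and below 1 CPM in LS, while LS3 stands far above all others for MSTRG.358.

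MSTRG.2423 showed the widest separation of the groups. It is described after glucan endo-1,3-beta-glucosidase 12 and the protein A6, which is known from the anther tapetum of *Brassica* and *Arabidopsis*. It had 484 counts in LM3, 123 in LM4 and 262 in LM6, against 1 in LS2, 2 in LS3 and 4 in LS6. As levels these were 113, 31.4 and 58.4 CPM in LM, against 0.198, 0.450 and 0.986 CPM in LS. The lowest LM library was thus far above the highest LS library, and the gene had at most 4 counts in any non-mycorrhizal root library. The mean was 67.8 ± 41.8 CPM in LM and 0.544 ± 0.402 CPM in LS (SD, n = 3 each). The log2 fold change was 6.92 (standard error 0.81, adjusted p = 0.0641 from edgeR, 2.45e-12 from DESeq2). With any 1 library removed it lay between 6.33 and 7.61. Because LS held only 7 counts over its 3 libraries, the ratio of LM to LS, 133, has a wide 95% interval, from 64.2 to 332, which covers counting error only. When all 21936 genes of the files that passed the filter were fitted together, 836 were called (3.81%), 3.51% as higher and 0.296% as lower in LM, with MSTRG.2423 (adjusted p = 0.0461 from edgeR) the only member among them. The files hold fungal as well as plant genes, all scaled here by plant reads, and the study reported more fungal reads on average in LM than in LS. These shares, and the adjusted p from that fit, are therefore not those of plant genes alone. MSTRG.2423 reached the level that the filter asks for in LM libraries only, so that it entered the test through the group in which it was high.

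MSTRG.2422, its partner from the same Trinity gene, had the same description and was also higher in LM, but from an appreciable level in LS. It had 79.9, 40.6 and 23.9 CPM in LM3, LM4 and LM6, against 11.5, 8.55 and 8.87 CPM in LS2, LS3 and LS6. The LS libraries lay close together, and the LM libraries spread 3.35-fold without reaching down to them. The mean was 48.1 ± 28.8 CPM in LM and 9.63 ± 1.61 CPM in LS (SD, n = 3 each), a log2 fold change of 2.32 (standard error 0.50, adjusted p = 0.196 from edgeR, 0.00777 from DESeq2). It was lowest without LM3, at 1.74, and highest without LM6, at 2.64.

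The balance between these partners differed between the groups. MSTRG.2423 took 58.7% of the counts of the pair in LM3 (95% Wilson interval 55.3 to 62.0), 43.6% in LM4 (38.0 to 49.5) and 71.0% in LM6 (66.2 to 75.4). In LS it took 1.69% in LS2 (0.300 to 9.0), 5.0% in LS3 (1.38 to 16.5) and 10.0% in LS6 (3.96 to 23.1). The LM libraries were thus spread widely, and all lay above the LS libraries. The mean share was 57.8% ± 13.7 in LM and 5.56% ± 4.18 in LS (SD, n = 3 each), a difference of 52.2 percentage points. An exact permutation gave a two-sided p of 0.1, the minimum for 3 libraries against 3, and 0.3 after adjustment over the 3 pairs. These shares need no library size. They rest on reads that matched 1 of the assembled sequences only, and since transcript lengths were not used they do not show which transcript was more abundant within a library.

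For the other 2 pairs no difference in balance was seen beyond the spread of the libraries. MSTRG.1913 took 92.3%, 91.4% and 92.8% of the counts of its pair with MSTRG.1911 in LM3, LM4 and LM6, against 95.2% in LS2 and 81.3% in LS3. In LS6 the pair had only 2 counts, both on MSTRG.1913, which allows a share from 34.2% to 100%. MSTRG.2019 took 97.1%, 97.3% and 97.1% of its pair with MSTRG.2020 in LM3, LM4 and LM6, against 96.5%, 99.1% and 92.2% in LS2, LS3 and LS6. The LM and LS libraries overlapped for both pairs, with differences of the means of 0.0234 and 1.25 percentage points (two-sided p = 1 and 0.7 by exact permutation, both 1 after adjustment). With each library left out in turn, these differences ranged from -5.42 to 3.95 and from -0.63 to 2.83 percentage points, while that of MSTRG.2423 stayed between 45.6 and 59.3.

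**Figure D2:**
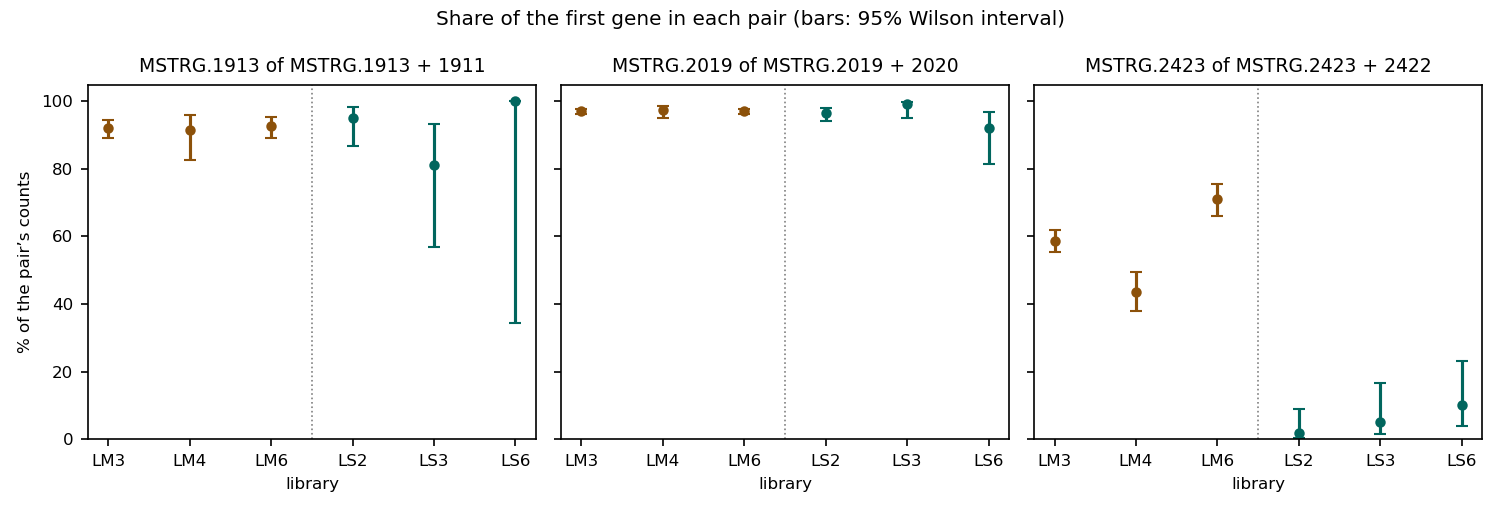
Share of the counts of a pair that fell on its first gene, in % (0 to 100), for the 3 pairs that share a Trinity gene, with LM libraries left of the dotted line and LS libraries right of it; bars are 95% Wilson intervals, which cover counting error only. MSTRG.2423 holds 43.6% to 71.0% of its pair in LM and 1.69% to 10.0% in LS, while the shares of MSTRG.1913 and MSTRG.2019 lie at similar values in both groups.

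MSTRG.2019 is described after glucan endo-1,3-beta-glucosidase 7, and its row holds 2 transcripts, one with the GH17 domain and one with the CBM43 module. It had 411, 83.3 and 352 CPM in LM3, LM4 and LM6, against 71.2, 24.3 and 11.6 CPM in LS2, LS3 and LS6. The groups did not overlap, but LM4 was only slightly above LS2, and the wide gap was between these and the other LM libraries. The mean was 282 ± 175 CPM in LM and 35.7 ± 31.4 CPM in LS (SD, n = 3 each). The log2 fold change was 2.98 (standard error 0.90, adjusted p = 0.228 from edgeR, 0.0351 from DESeq2), between 2.56 without LS6 and 3.97 without LS2. MSTRG.2020, its partner, had 53, 9 and 47 counts in LM against 13, 1 and 4 in LS. As levels, 2.30 CPM in LM4 were below the 2.57 CPM of LS2, so that the groups overlapped. Its log2 fold change was 2.69 (standard error 0.98, adjusted p = 0.266 from edgeR, 0.139 from DESeq2).

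MSTRG.1913 is described after a glucan endo-1,3-beta-glucosidase named GVI and has no CBM43 module. It had 86.5, 16.4 and 54.6 CPM in LM3, LM4 and LM6, against 11.7, 2.92 and 0.493 CPM in LS2, LS3 and LS6. As for MSTRG.2019, LM4 and LS2 were neighbors and the rest were far apart. The mean was 52.5 ± 35.1 CPM in LM and 5.03 ± 5.88 CPM in LS (SD, n = 3 each), and the spread within LS was as large as its mean. The log2 fold change was 3.36 (standard error 1.15, adjusted p = 0.260 from edgeR, 0.0605 from DESeq2), between 2.80 without LM3 and 4.90 without LS2. MSTRG.1911, its partner, was 1 of the 2 members below the filter, with 31, 6 and 19 counts in LM3, LM4 and LM6, against 3, 3 and 0 in the LS libraries. Its ratio of LM to LS was 9.99, with a 95% counting interval from 4.31 to 28.4, and its levels in the groups were disjoint. It was not tested by edgeR with the filter. Without the filter its log2 fold change in edgeR was 3.25 (standard error 1.04, adjusted p = 0.281), whereas DESeq2 gave an adjusted p of 0.0428, close to the threshold.

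MSTRG.701 was the member that was lower in LM. It is described after glucan endo-1,3-beta-glucosidase 7, like MSTRG.2019, and also carries both domains. It had 7.03, 7.41 and 8.25 CPM in LM3, LM4 and LM6, against 13.3, 64.3 and 35.2 CPM in LS2, LS3 and LS6. The LM libraries were nearly equal, whereas LS spread 4.85-fold, and even the lowest LS library was above them. The mean was 7.57 ± 0.625 CPM in LM and 37.6 ± 25.6 CPM in LS (SD, n = 3 each). The log2 fold change was -2.31 (standard error 0.59, adjusted p = 0.196 from edgeR, 0.00734 from DESeq2), between -2.71 without LS2 and -1.67 without LS3. On the log2 scale the SD within LM was 0.11, smaller than that of all but 6.26% of the 719 listed plant genes tested, while the SD within LS was 1.13 and exceeded that of 80.3% of them.

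MSTRG.358, described after glucan endo-1,3-beta-glucosidase 11 and 14, varied more within the groups than between them. It had 39.4, 19.7 and 8.70 CPM in LM3, LM4 and LM6, against 1.19, 165 and 9.61 CPM in LS2, LS3 and LS6. In LS the highest library was 139-fold above the lowest, and all LM libraries lay in between. The mean was 22.6 ± 15.5 CPM in LM and 58.6 ± 92.3 CPM in LS (SD, n = 3 each). The log2 fold change of -1.38 (standard error 1.57, adjusted p = 0.693 from edgeR, 0.690 from DESeq2) rested on LS3, and was 2.07 without it (adjusted p = 0.345). Its mean log2 level was likewise higher in LM, by 0.47, since logarithms give LS3 less weight. The SD of its log2 level within LS was 3.35 and exceeded that of 98.6% of the listed plant genes tested.

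MSTRG.845 varied little between libraries. It is described after glucan endo-1,3-beta-glucosidase 5 and 6 and has a predicted signal peptide. It had 11.5, 9.20 and 10.5 CPM in LM3, LM4 and LM6, against 9.89, 17.1 and 13.3 CPM in LS2, LS3 and LS6. The groups overlapped, with a log2 fold change of -0.37 (standard error 0.32, adjusted p = 0.598 from edgeR, 0.513 from DESeq2). MSTRG.650, described after glucan endo-1,3-beta-glucosidase 12 and 13, was the other member below the filter. Counts were 8, 1 and 1 in LM, against 2, 4 and 3 in LS, a ratio of 1.19 with a 95% counting interval from 0.434 to 3.31. At this depth a difference in MSTRG.650 within that interval was not detectable. Since the interval leaves out the spread between libraries, a difference somewhat beyond it could be missed as well.

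**Figure D3:**
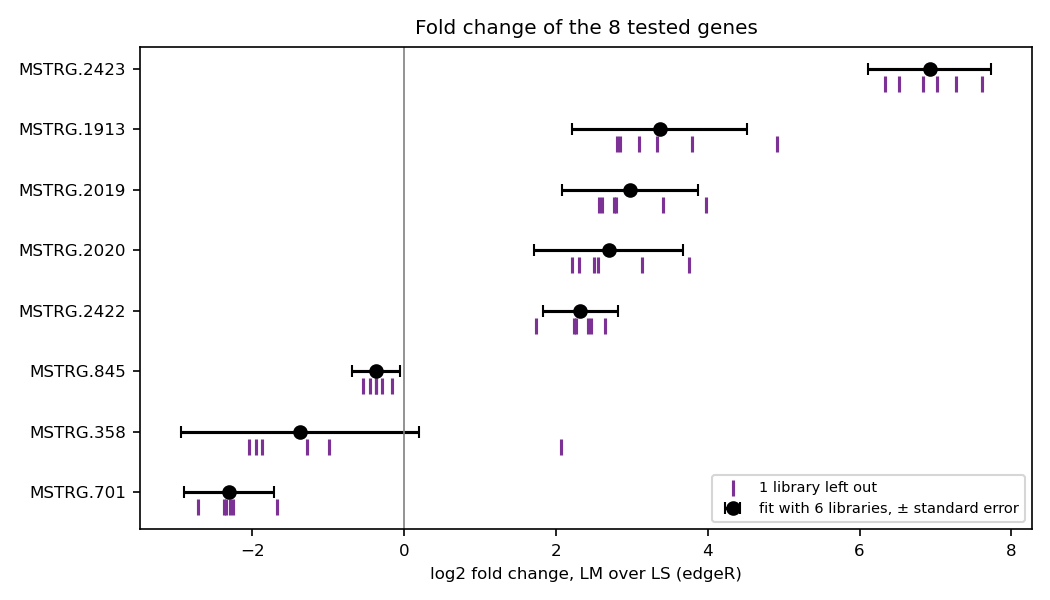
Log2 fold change of LM over LS for the 8 genes that edgeR tested (points, with bars of ± 1 standard error), and the same value with each of the 6 libraries left out in turn (ticks below each point). MSTRG.2423 stays above 6.33, and MSTRG.358 alone crosses 0, at 2.07 without LS3.

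Members that vary together were sought by comparing profiles, that is, the log2 level (prior count of 2) in each of the 6 libraries minus the mean of the gene. The distance between 2 profiles was the root mean square of their differences over the libraries, in log2 units. It is a description of 6 libraries that share their depth and scaling, and carries no test. Of the 45 pairings, MSTRG.1913 and MSTRG.2019 were nearest, at 0.47, although they come from different Trinity genes and differ in domains. The distance between them depended on the prior count, at 0.68 with a prior of 0.5 and 0.25 with a prior of 5. Not all pairings were recomputed with these priors. The ratio of MSTRG.2019 counts to those of MSTRG.1913 was 4.76, 5.09 and 6.44 in LM3, LM4 and LM6, against 6.10 and 8.31 in LS2 and LS3, and it was 23.5 in LS6, where MSTRG.1913 had 2 counts. MSTRG.2019 was also the nearest member to MSTRG.1911, at 0.66, and to MSTRG.2020, at 0.72. These 4 genes shared the order of the LM libraries, with LM3 highest, LM6 next and LM4 lowest. They did not share the order of the LS libraries. LS2 was highest for MSTRG.1913, MSTRG.2019 and MSTRG.2020, and LS3 was highest for MSTRG.1911. However, MSTRG.1911 had 3 counts in LS2 and 3 in LS3, so that its order of these libraries rests on library size alone. How many of the other listed plant genes have the same order in LM was not counted.

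MSTRG.2422 and MSTRG.2423 did not follow each other as closely as those 4 genes did. Their distance was 2.04, and among LM libraries LM4 was above LM6 for MSTRG.2422 but below it for MSTRG.2423. MSTRG.2423 had its nearest member in MSTRG.1913, at 1.82, with the same order of LM libraries. Since the distance grows with the size of the difference between LM and LS, the large difference of MSTRG.2423 sets it apart from every other member. MSTRG.845 and MSTRG.650 were 0.53 apart, the next smallest distance of the 45, though MSTRG.650 rests on few counts. MSTRG.701 had its nearest member in MSTRG.845, at 0.94, but MSTRG.845 ranked only 52 in nearness among the 718 other tested genes. MSTRG.701 and MSTRG.845 shared the order of the LS libraries, with LS3 highest, LS6 next and LS2 lowest. MSTRG.358 and MSTRG.650 had the same order in LS. In LM the order was not common to all of them, with LM6 highest for MSTRG.701 and LM3 highest for MSTRG.845, MSTRG.358 and MSTRG.650. The nearest member to MSTRG.358 was still 1.80 away.

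**Figure D4:**
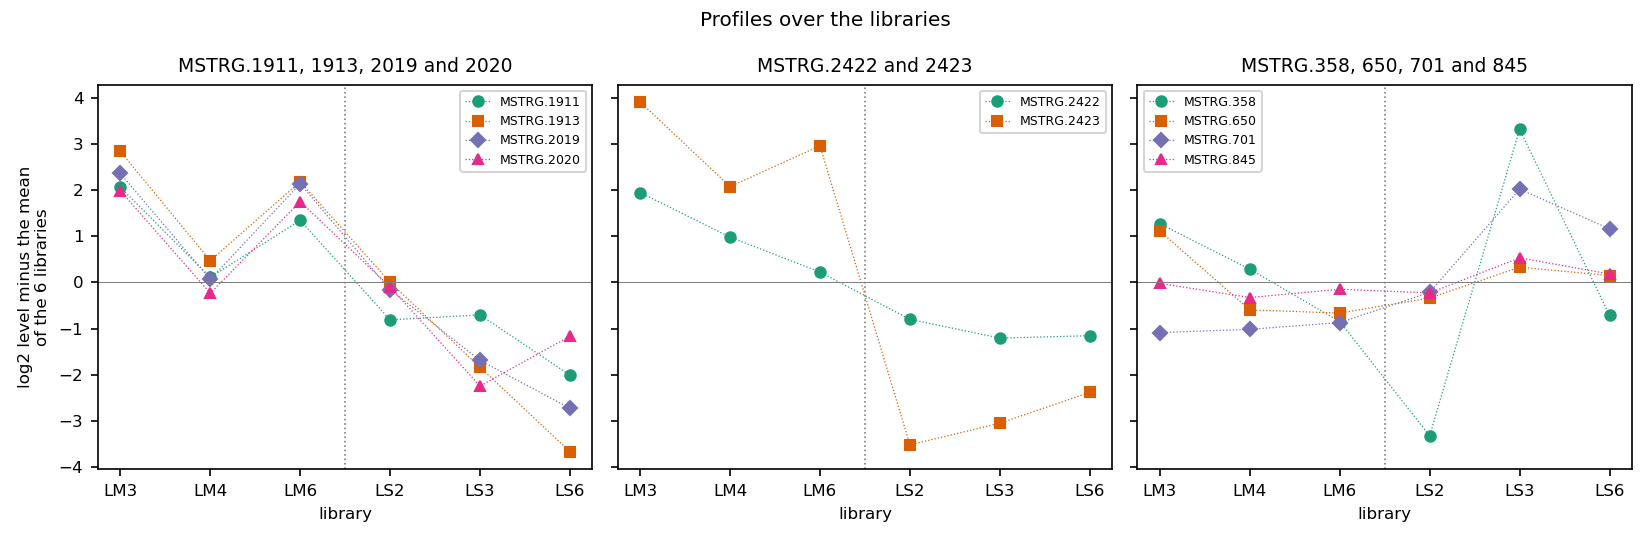
Log2 level of each gene minus its mean over the 6 libraries (vertical axis, log2 units), by library, with LM libraries left of the dotted line and LS libraries right of it; dotted lines join the values of a gene and imply no order. MSTRG.1911, MSTRG.1913, MSTRG.2019 and MSTRG.2020 are all highest in LM3 and next in LM6, MSTRG.2423 has the widest gap between the groups, and MSTRG.358 and MSTRG.701 peak in LS3.

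Summed over the 10 members, the level was 771, 212 and 532 CPM in LM3, LM4 and LM6, against 122, 285 and 81.8 CPM in LS2, LS3 and LS6. The groups overlapped, with a mean of 505 ± 280 CPM in LM and 163 ± 107 CPM in LS (SD, n = 3 each), a ratio of 3.10. Without MSTRG.2019 the mean was 222 ± 121 CPM in LM and 127 ± 116 CPM in LS, a ratio of 1.75, again with overlap. Different genes made up the sum in different libraries. MSTRG.2019 held 53.4%, 39.3% and 66.3% of it in LM3, LM4 and LM6, against 58.2%, 8.54% and 14.2% in LS2, LS3 and LS6. MSTRG.358 held 58.0% in LS3 and at most 11.7% in any other library. The 6 genes of the 3 pairs alone summed to 463 ± 270 CPM in LM and 52.6 ± 39.8 CPM in LS, without overlap. Most of this came from MSTRG.2019, with means of 282 CPM in LM and 35.7 CPM in LS. The remaining 4 members summed to 41.3 ± 16.6 CPM in LM and 110 ± 120 CPM in LS (SD, n = 3 each), with overlap. These sums and shares are of counts, and transcript lengths were not used.

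Among the 718 other listed plant genes tested, the profile nearest to that of MSTRG.2423 was that of MSTRG.1807, described as a desiccation-related protein, at a distance of 0.61 over 6 libraries. Its counts were 628, 92 and 227 in LM, against 0, 1 and 0 in LS. MSTRG.32, with no description and with 5, 5 and 2 counts in LS, followed at 0.80, and MSTRG.1118, described as a cell number regulator, at 1.21. MSTRG.1807 and MSTRG.32, like MSTRG.2423, entered the test through the LM libraries only. The same comparison for MSTRG.2019 gave MSTRG.1913 first, then MSTRG.1430, with no description, at 0.70, and then MSTRG.2020. The profiles nearest to MSTRG.701 were those of MSTRG.1177, a BAG family molecular chaperone regulator, at 0.45, and of MSTRG.455, a glycerol-3-phosphate acyltransferase, at 0.46. MSTRG.445, photosystem II reaction center protein K, followed at 0.51. It had only 1, 2 and 2 counts in LM, against 13, 18 and 14 in LS, and entered the test through the LS libraries only.

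Other genes with related roles were taken from lists drawn up by description and domain. Of 9 other glycoside hydrolases and wall-loosening proteins, 6 were tested, 0 had an adjusted p under 0.05 in edgeR, and their median log2 fold change was 0.52, beside 0.06 over the 719 genes and 2.50 over the 8 members tested. MSTRG.2405, a soluble beta-fructofuranosidase, which splits sucrose, was counted 0, 0 and 2 times in LM, against 30, 200 and 17 times in LS (adjusted p = 0.196 from edgeR, 0.00164 from DESeq2), and entered the test through the LS libraries only. MSTRG.821, a receptor-like kinase that dbCAN2 assigned to GH152, the family of thaumatin-like proteins, had 19.7, 24.8 and 7.14 CPM in LM3, LM4 and LM6, against 4.75, 1.57 and 1.72 CPM in LS2, LS3 and LS6 (adjusted p = 0.196 from edgeR, 0.0284 from DESeq2). A beta-amylase (MSTRG.677) and a xyloglucan endotransglucosylase (MSTRG.2222), which remodels a wall polymer, were higher in every LM library, as were 15.4% of the 719 genes. Their log2 fold changes were 0.80 and 0.61, with adjusted p of 0.254 and 0.308 from edgeR. The alpha-fucosidase MSTRG.975 and the beta-D-xylosidase MSTRG.2001 overlapped between the groups, and MSTRG.787, MSTRG.861 and MSTRG.2406 were below the filter.

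Genes annotated to the defense response, the broader process in which several beta-1,3-glucanases take part, were also examined. Of 26 such genes outside the family, 16 were tested, with 0 at an adjusted p under 0.05 in edgeR. At an unadjusted p under 0.05, 1 was higher in LM (9.32% of the 719 genes) and 1 was lower (6.54% of the 719 genes). By sign alone, 5 log2 fold changes were positive and 11 negative, with a median of -0.21, where 386 were positive and 333 negative over the 719 genes, with a median of 0.06. The highest fold change of the 16 was that of MSTRG.1613, a lectin-domain receptor kinase (log2 fold change 3.25, adjusted p = 0.228 from edgeR, 0.0351 from DESeq2), which entered the test through the LM libraries only, and the lowest that of MSTRG.855, a G-type lectin receptor kinase (-1.57, adjusted p = 0.187 from edgeR, 0.000192 from DESeq2). Below the filter, MSTRG.1542, a leucine-rich repeat receptor-like kinase picked after its values were seen, had 3 counts in LM and 68 in LS (log2 fold change without the filter -4.16, adjusted p = 0.288 from edgeR, 0.0544 from DESeq2). Of 6 genes outside the family annotated as anchored in the membrane, as some beta-1,3-glucanases are, 5 were tested. Their log2 fold changes ran from -0.51 (MSTRG.1587) to -0.07 (MSTRG.1691), with overlapping groups. Among these, MSTRG.1452 (-0.50) and MSTRG.1453 (-0.40) are also in the defense list, so the lists are not independent. Callose synthases, which make the substrate of the family in plants, are not among the listed plant genes and were not analyzed here.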

How the data were processed

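The authors deposited 1 file of HTSeq counts per library, holding whole-number read counts per assembled gene without normalization. Per the labels and methods, poly(A)-enriched libraries were sequenced paired-end, trimmed and assembled with Trinity, and the submitters' processing notes name HISAT2 2.0.4, StringTie 1.3.5 and DESeq2 1.26.0. The HTSeq version and strand setting were not stated in the sources at hand, so overlapping or near-identical transcripts may share or lose reads. The 5 summary rows that name no gene, 68.3% to 72.8% of the entries of a file, were left out. Descriptions and domains came from the plant gene table of the study, of which 1159 rows were at hand. Library size was the number of reads aligned to plant transcripts, as given by the study.

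The test was edgeR 4.0.16 (glmQLFit and glmQLFTest, R 4.3.3) of LM against LS, with filterByExpr (minimum count 10, minimum total 15), which 719 listed plant genes and 8 of 10 members passed, and Benjamini-Hochberg adjustment over those genes (threshold 0.05). Alternatives were DESeq2 1.42.0, TMM factors, the sum of gene counts as library size, no filter, a fit of all genes, a replicate block, each library left out, and other prior counts. Pairs were compared by exact permutation tests. The fit was tested on simulated data, with no value quoted here. The text names every member and the genes of the list of other glycoside hydrolases and wall-loosening proteins. It names the highest and lowest fold change among the tested genes of each other list, none of which had an adjusted p under 0.05 in edgeR. It also names the 3 tested genes nearest in profile to MSTRG.2423, MSTRG.2019 and MSTRG.701. Outside these rules it names MSTRG.1542, picked after its values were seen, and MSTRG.1452 and MSTRG.1453, which are in both other lists. The members and lists were chosen with earlier results of these data known. Intervals cover counting error only, because they were computed from the counts of 1 library or from counts summed over a group. Reads carried no molecular identifiers. The p-values from edgeR and DESeq2 weigh the difference between LM and LS against the spread between these libraries.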

Additional observations from a re-analysis of the deposited data

How the results depend on the processing

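The number of listed plant genes called at an adjusted p under 0.05 was 0 with edgeR, 74 with DESeq2 and 4 when all genes of the files were fitted together, and it was 0 to 0 with any 1 library removed. At an unadjusted p under 0.05 there were 114 with edgeR, 161 with edgeR without its filter and 184 with DESeq2, which was also run without that filter, and 80 to 146 with a library left out. DESeq2 also scaled the libraries by its own size factors, estimated from the listed plant genes, and not by the reads aligned to plant transcripts. The calls of the members therefore depend on the test and its settings, and the cause was not tested beyond the filter. MSTRG.358 had log2 fold changes from -2.05 to 2.07 with 1 library removed, the highest without LS3, and changed sign there and with a replicate block, to 0.16. Whether the replicate numbers pair the libraries is not known, and the main fit treated them as unpaired. The correlations of deviations between libraries of the same number were -0.0548, 0.159 and 0.138 over 719 genes. Between libraries of unlike number they ran from -0.224 to 0.0987. With 3 libraries in a group these values cannot decide whether plants were shared. With the block, 0 genes had an adjusted p under 0.05 in edgeR and 104 an unadjusted p under 0.05. The summed level of the 10 members was 342 CPM higher in LM, 325 CPM with TMM factors, 238 CPM with the sum of gene counts as library size, and 209 to 488 CPM with a library left out. The differences in pair shares ranged from -5.42 to 3.95 for MSTRG.1913, from -0.63 to 2.83 for MSTRG.2019 and from 45.6 to 59.3 percentage points for MSTRG.2423. The small differences for MSTRG.1913 and MSTRG.2019 thus changed sign. Among the other recomputed values, 5 (4 members in DESeq2 and MSTRG.2423 in the fit of all genes) passed the threshold only under the alternative. In addition, 3 counts of genes moved by over 1.5 times, and 2 fold changes, both of MSTRG.358, reversed. Depth limits MSTRG.650, MSTRG.1911 and the LS shares of all pairs.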
